A study of Homo sapiens with 6 samples.

Results

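The CBL family of ubiquitin ligases and the proteins that work with it were examined on the arrays of SALL4-depleted lung cancer cells. The set was fixed by name and held 8 genes, namely CBL, CBLB, CBLC, CBLL1, UBASH3A, UBASH3B, SH3KBP1 and CD2AP, of 18404 genes that the arrays measured. All 8 were found, on 9 of the 32321 probe sets, because SH3KBP1 had 2. H661, a human large cell lung carcinoma line with high endogenous SALL4, was transduced with lentivirus that carried either scramble shRNA (Scr-sh, 3 arrays) or 1 SALL4 shRNA (SALL4-sh, 3 arrays). Both groups therefore carried a viral vector and a hairpin, and no second SALL4 hairpin or untransduced sample was analysed here. Whether the 3 samples of a group were grown separately is not stated, and the p-values therefore rest on a spread between samples that may be technical.

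CBL, CBL-B and CBL-C attach ubiquitin to activated receptor tyrosine kinases and so mark them for uptake and lysosomal degradation. Their RING finger recruits the ubiquitin-conjugating (E2) enzyme, and an amino-terminal domain reads phosphotyrosine on the receptor. SH3KBP1 (also called CIN85) and CD2AP are related SH3 adaptors that bind the CBL proteins and connect them with endophilins and with the actin cytoskeleton during receptor internalization. UBASH3A and UBASH3B (the Sts proteins) are phosphatase-like proteins that bind CBL and oppose the downregulation of receptors and tyrosine kinase signaling. CBLL1, or Hakai, resembles CBL in its RING finger only. It ubiquitinates the E-cadherin complex and is also part of the complex that writes N6-methyladenosine (m6A) into RNA.

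Normalized intensities are linear here, and any value below 8 was deposited as 8, the floor, so differences between signals near 8 are hidden. Log2 values were compared with limma over all 18404 genes at an adjusted p of 0.05, which called 218 genes higher and 244 lower in SALL4-sh, or 2.51% of all genes (199 and 337 after cyclic loess normalization). Among genes above the 25th percentile of mean intensity, 11.5% were called. That second fit is quoted beside the first, because the 3893 genes without any spread, at the floor on all 6 arrays, enter the first. SALL4 itself had 126, 104 and 130 in Scr-sh and 33.6, 31.9 and 26.5 in SALL4-sh, so that the knockdown arrays held far less of it (log2 fold change -1.97, with an adjusted p of 0.0159 by limma). That call of SALL4 was lost without any 1 array other than Scr-sh replicate 2 (adjusted p = 0.0523 to 0.0741), and with the filter it held without any 1 array (adjusted p = 0.00504 to 0.0189). The arrays differed in other ways as well. Of 10 interferon-stimulated genes, 4 were called lower and 0 higher (8 lower with the 25th percentile filter), their summed intensity was 2053 to 4369 in Scr-sh and 170 to 248 in SALL4-sh, and Scr-sh replicate 2 held the highest value. Of 9 leukocyte and erythroid markers 0 were called, and PTPRC, CD3D, CD3E and MS4A1 stood at the floor throughout. CD68 (34.0 to 71.6 in Scr-sh, 30.5 to 35.4 in SALL4-sh) and NKG7 (24.1 to 26.6 and 25.3 to 35.5) lay well above it, with groups that overlapped. The summed intensity of these 9 was 119 to 154 in Scr-sh and 117 to 125 in SALL4-sh. Of 6 epithelial markers, EPCAM was high at 590 to 1113 over the 6 arrays while KRT8 lay at 8 to 11.1, and only CDH1 was called, as higher. Of 8 fibroblast and endothelial markers, COL1A1 was called lower and the others were not, with sums of 380 to 465 and 300.3 to 365. With the filter COL1A2 was called lower instead (log2 fold change -0.79, adjusted p = 0.0301 from limma), and COL1A1 was not (adjusted p = 0.0735). Of 8 reference genes 0 were called (1 higher and 2 lower at an unadjusted p under 0.05). The median of these 8 was 0.01 on the log2 scale, and with the filter ACTB and B2M were lower. Whether these other differences had a part in the values below was not tested. In such bulk RNA, fewer cells of a type and less RNA per cell cannot be told apart.

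Promoter windows were read because the study proposes that SALL4 acts at the CBLB promoter. It reports enrichment of SALL4 there in H661 cells by chromatin immunoprecipitation with PCR. RefSeq windows on GRCh38.p14 (250 bases before to 50 after a start site) were found for 5 of the 8 genes, 12 windows in all. No window was found for CBL, CBLC or UBASH3A, and some windows of CBLB and of SH3KBP1 overlap each other. The letters AATATT, an A/T-rich hexamer that SALL4 zinc fingers are known to bind and which reads the same on both strands, were in 0 of the 12 windows and in 6.96% of all 35116 windows. This describes these windows only, which are too few to set 0 apart from that share. It says nothing of whether SALL4 binds in these windows or elsewhere. The 250 bases before the first listed start are shown for CBLB, at chr3:105869402-105869651 on the minus strand, and for the adaptors, CD2AP at chr6:47477539-47477788 on the plus strand and SH3KBP1 at chrX:19833152-19833401 on the minus strand. No part is in capitals, since none held the hexamer.
CBLB: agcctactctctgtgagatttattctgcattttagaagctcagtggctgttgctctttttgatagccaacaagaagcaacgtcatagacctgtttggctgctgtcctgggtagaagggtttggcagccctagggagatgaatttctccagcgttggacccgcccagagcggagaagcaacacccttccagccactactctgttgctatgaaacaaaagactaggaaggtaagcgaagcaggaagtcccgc
CD2AP: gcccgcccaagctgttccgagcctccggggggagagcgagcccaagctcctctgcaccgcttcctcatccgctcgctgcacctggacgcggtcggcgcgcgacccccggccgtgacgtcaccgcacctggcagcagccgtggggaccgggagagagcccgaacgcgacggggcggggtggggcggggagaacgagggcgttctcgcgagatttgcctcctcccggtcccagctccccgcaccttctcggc
SH3KBP1: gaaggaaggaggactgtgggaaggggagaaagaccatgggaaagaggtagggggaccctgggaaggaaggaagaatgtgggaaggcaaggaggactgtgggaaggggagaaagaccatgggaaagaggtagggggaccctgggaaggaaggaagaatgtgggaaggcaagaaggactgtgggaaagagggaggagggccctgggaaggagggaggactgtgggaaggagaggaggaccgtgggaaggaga
The 3 sequences have little in common. The CD2AP sequence is 73.6% G or C with 32 CpG dinucleotides, and that of CBLB is 50% with 6, where the median of the same 250 bases in all windows is 58.0% with 11. The SH3KBP1 sequence is rich in purines, which make up 83.6% of its bases, and has 1 CpG. The other CBLB starts, further into the gene, had 68.4% to 72.0% G or C.

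CBL and CBLC were higher on every SALL4-sh array, and the groups overlapped for CBLB and CBLL1. None of these passed the threshold over all genes. CBL, the most widely studied ligase of the family, had intensities of 52.0, 38.1 and 45.5 in Scr-sh and of 82.4, 112 and 84.0 in SALL4-sh. Every SALL4-sh array was above every Scr-sh array. The means were 45.2 ± 6.94 for Scr-sh against 92.8 ± 16.6 for SALL4-sh (SD, n = 3 each), a ratio of 2.05 with a 95% confidence interval of 1.46 to 2.88 from limma. The log2 fold change of CBL was 1.04 (standard error 0.18). It did not pass the threshold over all genes (adjusted p = 0.0821 from limma) and passed it with the 25th percentile filter (adjusted p = 0.0105 from limma). With the filter the call was lost without Scr-sh replicate 3 (adjusted p = 0.0506) or SALL4-sh replicate 2 (adjusted p = 0.0606) and held without any other single array. The exact two-sided permutation test gave p = 0.1, the smallest value that 3 arrays against 3 allow. A log2 fold change at least as high as that of CBL was found in 2.38% of the 14511 genes that were not at the floor throughout.

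CBLB, whose product CBL-B is the ligase in question in this study, had 49.5, 38.9 and 49.8 in Scr-sh and 35.2, 47.4 and 38.4 in SALL4-sh. The groups overlapped, and the lowest Scr-sh value was below the highest SALL4-sh value. The ratio of SALL4-sh to Scr-sh was 0.874, with a 95% confidence interval of 0.644 to 1.19 from limma, which leaves out both a 1.5-fold increase and the ratio found for CBL. The log2 fold change of CBLB was -0.19 (standard error 0.16). Limma's adjusted p was 0.734, or 0.598 with the filter, and 53.4% of the 14511 genes differed by at least as much in either direction. The paper reports the other direction, with CBLB higher after SALL4 knockdown on its microarray and by quantitative PCR in H661 cells. It also reports more CBL-B protein in the lung cancer lines examined. The array values read here did not show that increase in CBLB RNA, and they do not measure protein.

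Because both ligases were read on the same arrays, their log2 ratio was also compared between the groups. The ratio restates the values of CBL and CBLB given above and is no further support for them. Log2 CBL minus log2 CBLB was 0.07, -0.03 and -0.13 in Scr-sh and 1.23, 1.24 and 1.13 in SALL4-sh. The difference of 1.23 was larger than the spread within either group (SD 0.10 and 0.06, n = 3 each), with no overlap (exact two-sided permutation test, p = 0.1, the smallest possible, and also 0.1 after adjustment over the 3 such ratios computed). This ratio sets probe sets of different genes against each other, so that only its difference between groups has a meaning.

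CBLC, the family member restricted largely to epithelia, lay just above the floor, at 8.21, 9.31 and 8.13 in Scr-sh and 10.6, 10.4 and 10.8 in SALL4-sh. The SALL4-sh values were all higher, by a ratio of 1.24 (adjusted p = 0.0990 from limma, and 0.239 with the filter). Without Scr-sh replicate 2 the adjusted p of CBLC was 0.0281 from limma. At such a signal the floor limits what can be read, and with a floor of 16 in place of 8 no value of CBLC remained.

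CBLL1 had 146, 151 and 103 in Scr-sh and 80.0, 150 and 112 in SALL4-sh. The groups overlapped widely, and the ratio was 0.841 with a 95% confidence interval of 0.482 to 1.47 from limma (adjusted p = 0.856). That interval includes a decrease of the size seen below for CD2AP, so a decrease of that size in CBLL1 was not excluded.

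**Figure D1:**
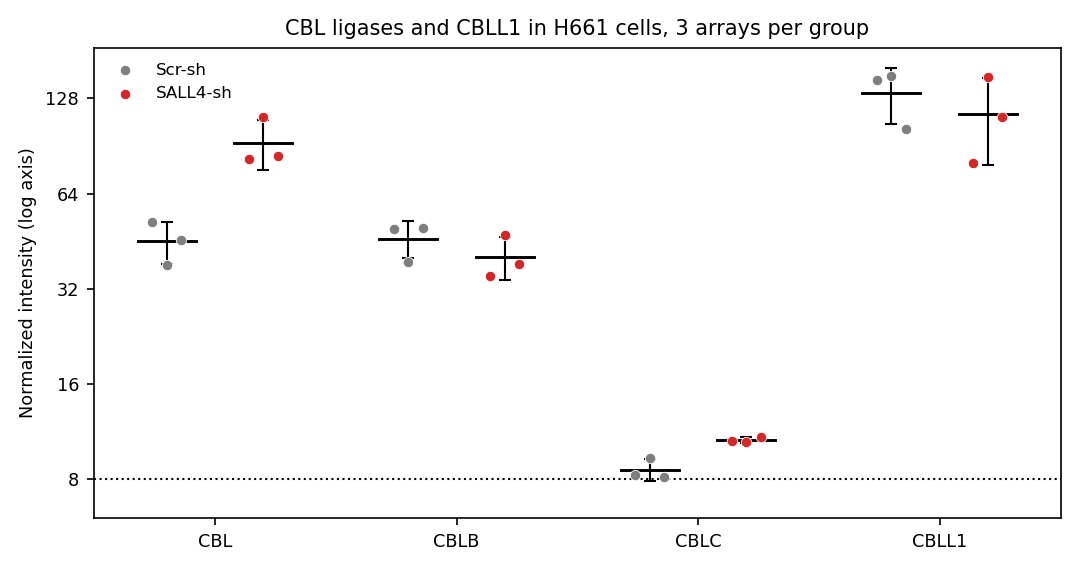
Normalized intensity (log axis) of CBL, CBLB, CBLC and CBLL1 across the 6 arrays. Each point is 1 array, the bar with its whisker gives the group's mean and SD (n = 3), and a dotted line marks the floor at 8. The groups are apart for CBL (45.2 and 92.8 on average) and for CBLC near the floor, and they overlap for CBLB and CBLL1.

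Of the adaptors that CBL proteins bind, CD2AP had lower values in SALL4-sh, and SH3KBP1 had no single direction over its probe sets. CD2AP had 293, 463 and 373 in Scr-sh and 202, 238 and 192 in SALL4-sh. Each SALL4-sh value was below each Scr-sh value, and Scr-sh replicate 2 was the highest. The means were 376 ± 84.9 for Scr-sh against 211 ± 24.4 for SALL4-sh (SD, n = 3 each), a ratio of 0.568 with a 95% confidence interval of 0.390 to 0.826 from limma. The log2 fold change of CD2AP was -0.82 (standard error 0.20), which missed the threshold over all genes (adjusted p = 0.145 from limma) and passed it with the filter (adjusted p = 0.0307 from limma). With the filter the call held without Scr-sh replicate 1 (adjusted p = 0.0279) and was lost without any other single array (adjusted p = 0.0671 to 0.128 from limma). Without Scr-sh replicate 2 its log2 fold change was -0.65. A log2 fold change as low as that of CD2AP was found in 4.63% of the 14511 genes.

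SH3KBP1 was measured by 2 probe sets that went in opposite directions. The brighter one, 8165674, is annotated to a single mRNA entry and to no RefSeq transcript. It had 1135, 1480 and 1348 in Scr-sh and 1537, 2234 and 2234 in SALL4-sh, which is higher on every SALL4-sh array, by a ratio of 1.5 (adjusted p = 0.253 from limma, and 0.0985 with the filter). The other probe set, 8171684, is annotated to RefSeq transcripts of SH3KBP1. It had 92.0, 147 and 113 in Scr-sh and 26, 21.9 and 31.7 in SALL4-sh, which is lower on every SALL4-sh array. Its means on the arrays were 117 ± 27.8 for Scr-sh against 26.5 ± 4.91 for SALL4-sh (SD, n = 3 each), or 77.4% lower.

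The log2 fold change of the RefSeq-linked probe set of SH3KBP1 was -2.14 (standard error 0.24). Among all 32321 probe sets, of which 0.962% were called, its adjusted p was 0.0531 from limma. Where it stood for SH3KBP1 in the fit over 18404 genes, the adjusted p was 0.0355, and 0.00103 with the 25th percentile filter. Without any 1 array and without the filter, the adjusted p was 0.0563 to 0.126 from limma and the log2 fold change -2.30 to -1.96. With the filter its call held without any 1 array (adjusted p = 0.0062 to 0.0256 from limma). Only 26 of the 14511 genes, or 0.179%, had a log2 fold change as low. The within-array difference between the 2 probe sets was -3.51 ± 0.16 for Scr-sh against -6.23 ± 0.40 for SALL4-sh in log2 units (SD, n = 3 each), with no overlap (exact two-sided permutation test, p = 0.1). That difference restates the opposite directions of the 2 probe sets. Whether probe set 8165674 reports SH3KBP1 at all is uncertain. The probe set before it by number is annotated to MTND2P28, a mitochondrial pseudogene, and had a log2 fold change of 0.52, against its own 0.59. Similar fold changes do not show that both read the same RNA, which was not tested. The arrays therefore gave no single direction for this gene, and the brightest-probe-set rule and the RefSeq annotation gave opposite ones.

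CD2AP and the RefSeq-linked probe set of SH3KBP1 were both lower, and their ratio was compared in the same way, again as a description of values already given. Log2 CD2AP minus log2 SH3KBP1 was 1.67, 1.65 and 1.72 in Scr-sh and 2.96, 3.44 and 2.60 in SALL4-sh, a difference of 1.32 with no overlap (exact two-sided permutation test, p = 0.1).

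The UBASH3 phosphatases were at or near the floor. UBASH3A, known from T cells, stood at 8 on all 6 arrays and so had no measured level. UBASH3B, the widely expressed relative, had 8, 9.0 and 9.43 in Scr-sh and 8, 11.8 and 10.8 in SALL4-sh. The groups overlapped (log2 fold change 0.20, adjusted p = 0.761 from limma), and a difference in RNA too weak to leave the floor would not be seen.

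**Figure D2:**
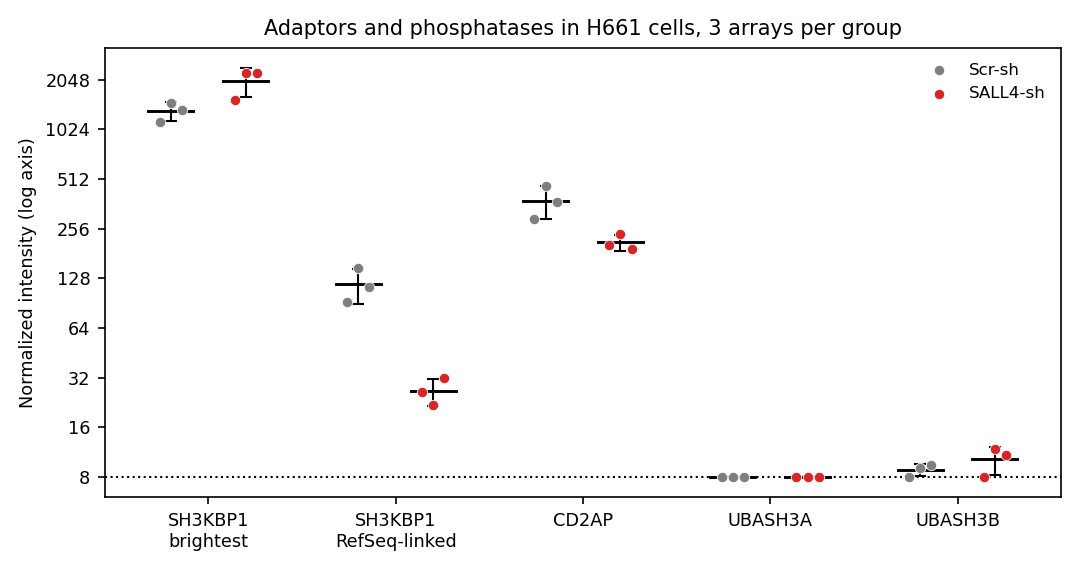
Normalized intensity (log axis) of both probe sets of SH3KBP1, of CD2AP and of the UBASH3 genes by array. Each point is 1 array, the bar with its whisker gives the group's mean and SD (n = 3), and a dotted line marks the floor at 8. The probe sets of SH3KBP1 differ in opposite directions, CD2AP is lower on all SALL4-sh arrays, and UBASH3A stands at 8 throughout.

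Taken by the brightest probe set, 0 of the 8 genes passed the adjusted threshold of limma over all genes, where 2.51% of genes did. At an unadjusted p under 0.05, CBL, CBLC and SH3KBP1 were higher and CD2AP was lower, where 17.4% of all genes (1757 higher and 1449 lower) had such a p. The one-way test that the study names for its arrays called 0 after the same adjustment. With the 25th percentile filter 7 were tested and 2 passed, CBL as higher and CD2AP as lower, where 11.5% of genes passed. Groups did not overlap for 4 of the 7 genes not at the floor throughout, against 27.5% of all such genes. With so few genes these counts are a description only.

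**Figure D3:**
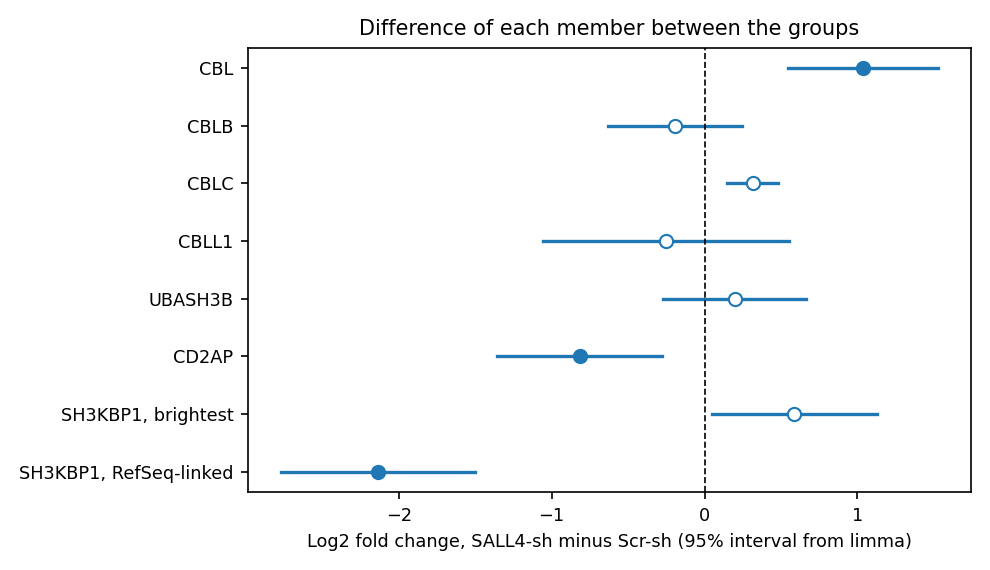
Log2 fold change (SALL4-sh minus Scr-sh) of the CBL ligases and their adaptors with 95% confidence intervals from limma over all genes. Filled points passed an adjusted p of 0.05 with the 25th percentile filter. CBL lies at 1.04, CD2AP at -0.82 and the RefSeq-linked probe set of SH3KBP1 at -2.14, while the intervals of CBLB, CBLL1 and UBASH3B include 0. UBASH3A, at the floor throughout, is not drawn.

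CBL ligases act on receptors at the cell surface. Of 16 receptor tyrosine kinases listed, 14 were measured, 5 of them at the floor on all 6 arrays, KIT, KDR and FLT3 among these. None of the 14 passed over all genes, 1 was lower at an unadjusted p under 0.05 (17.4% of all genes in either direction), and the median log2 fold change was -0.08, against 0 over all genes. EGFR had 27.4, 43.3 and 24 in Scr-sh and 18.0, 15.7 and 15.5 in SALL4-sh, and it was the only receptor to pass with the filter (log2 fold change -0.90, adjusted p = 0.0338 from limma). Of the 6 arrays, only Scr-sh replicate 2 could be left out with the call of EGFR kept (adjusted p = 0.0457). IGF1R, the insulin-like growth factor receptor, had 252, 142 and 168 in Scr-sh and 135, 124 and 134 in SALL4-sh (log2 fold change -0.47, adjusted p = 0.218 with the filter). The paper reports little effect of the knockdown on EGFR and IGF1R RNA in H661 cells, with quantitative PCR beside its arrays. It reports less IGF1R protein in H661 cells and less EGFR protein in other lines. In the values read here, neither EGFR nor IGF1R had groups that overlapped, and EPHA2 was also lower on every SALL4-sh array. Groups did not overlap for 27.5% of all genes that were not at the floor throughout.

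Among the kinases and adaptors that bind CBL proteins, 17 of 22 were measured and 0 passed over all genes, with 1 higher and 3 lower at an unadjusted p under 0.05 (all genes 17.4%). With the filter 3 of 14 were lower and 0 higher, where 11.5% of all genes were called in either direction. GRB2, which brings CBL to EGFR through its SH3 domains, had 226, 121 and 173 in Scr-sh and 80.3, 55.1 and 66.3 in SALL4-sh. All SALL4-sh values of GRB2 were lower. The log2 fold change was -1.34, and limma's adjusted p was 0.0100 with the filter and 0.115 without. The filtered call of GRB2 was lost without Scr-sh replicate 3 (adjusted p = 0.0582), SALL4-sh replicate 2 (0.0858) or SALL4-sh replicate 3 (0.0628). The other 2 were FYN, a SRC family kinase that phosphorylates CBL (log2 fold change -1.04, adjusted p = 0.0375 with the filter), and SORBS2, an adaptor with SH3 domains (-0.78, adjusted p = 0.0496 with the filter). The calls of FYN and SORBS2 were each lost without any 1 of the 6 arrays (adjusted p = 0.0566 to 0.175 for FYN and 0.0655 to 0.148 for SORBS2). FYN groups were apart by little, with 67.9 as the lowest Scr-sh value and 60.0 as the highest SALL4-sh value.

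Of 6 regulators of CBL proteins 0 passed, with or without the filter (ITCH was higher at an unadjusted p under 0.05, a p that 17.4% of all genes had), and the median log2 fold change was 0.23. ITCH, a HECT ligase that ubiquitinates CBL proteins, had 156, 191 and 243 in Scr-sh and 257, 274 and 309 in SALL4-sh, and its log2 fold change of 0.53 did not pass (adjusted p = 0.273 from limma). CDC42, a small GTPase that regulates CBL through ARHGEF7, did not pass either (adjusted p = 0.46), and its groups overlapped. Of the E2 enzymes on the list only UBE2D4 had a probe set with 1 symbol, and its groups overlapped, at 83.2 to 210 in Scr-sh and 80.7 to 122 in SALL4-sh.

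Partners of SH3KBP1 and CD2AP were measured for 16 of 18 genes, and 0 passed with or without the filter (2 were lower at an unadjusted p under 0.05, with 17.4% of all genes in either direction). The lowest p-values were those of CAPZA2 and CAPZB, subunits of the actin capping protein that both adaptors bind. CAPZA2 had 159, 230 and 157 in Scr-sh and 126, 121 and 109 in SALL4-sh (log2 fold change -0.59, adjusted p = 0.208 from limma), and for CAPZB the log2 difference was -0.45 (adjusted p = 0.208). Both had lower values on every SALL4-sh array, as did CD2AP, but neither passed. ANLN, another of these partners, was higher on every SALL4-sh array. Groups did not overlap for 27.5% of all genes that were not at the floor throughout.

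For CBLL1, the m6A writer complex and the cadherin complex were listed. All 7 writer genes were measured and 0 passed (1 was lower at an unadjusted p under 0.05, against 17.4% of all genes), with RBM15B (log2 fold change -0.44, adjusted p = 0.182 from limma) and RBM15 (-0.46, adjusted p = 0.291) the closest. Of 3 measured genes of the cadherin complex, CDH1, which encodes E-cadherin, was the only one to pass over all genes. It had 10.5, 8 and 8.68 in Scr-sh and 17.2, 16.1 and 17.3 in SALL4-sh. For CDH1 the log2 fold change was 0.91, with 0.0456 as limma's adjusted p, and the value of Scr-sh replicate 2 lay at the floor. This call of CDH1 held without Scr-sh replicate 1 (adjusted p = 0.0438) and was lost without any other single array (adjusted p = 0.0686 to 0.155). With the filter the adjusted p of CDH1 was 0.00965, and the call was lost only without SALL4-sh replicate 3 (adjusted p = 0.0515). The catenins CTNNA1 and CTNNB1 did not pass.

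Over the 7 lists together, 64 of 78 genes were measured. Of these 1 was higher and 0 lower over all genes, where 2.51% of all genes were called, and 1 was higher and 4 lower of 52 with the filter, where 11.5% were called. Their median log2 fold change was -0.01.

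**Figure D4:**
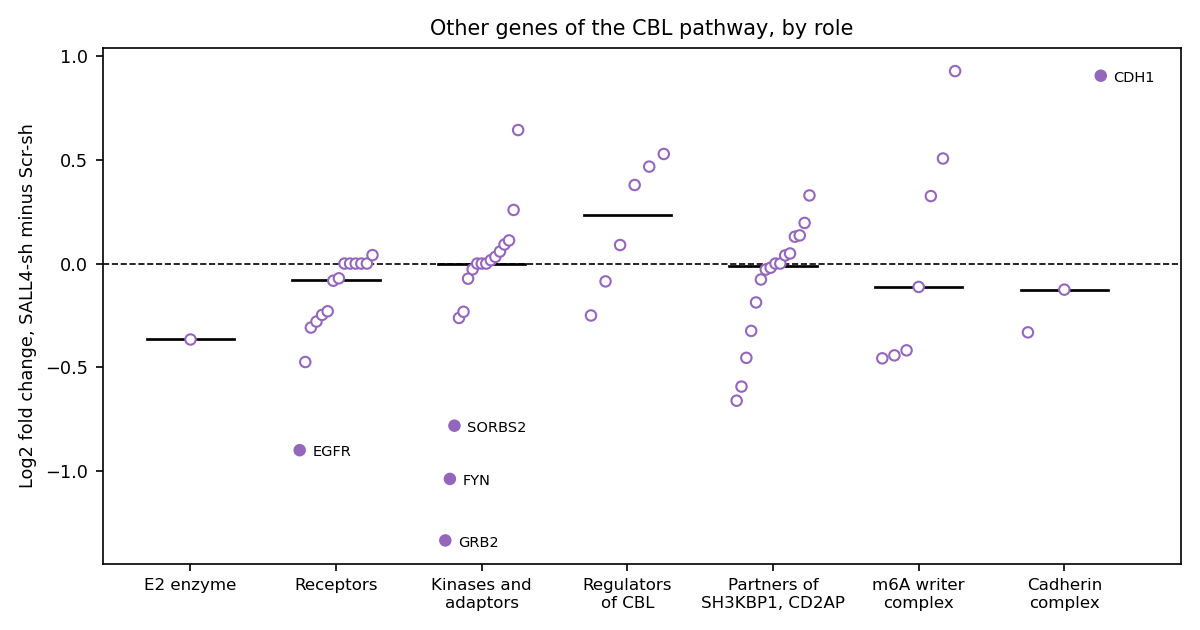
Log2 fold change (SALL4-sh minus Scr-sh) of other genes of the CBL pathway, grouped by role. Each point is a gene, horizontal bars are the medians of each list, and filled, named points passed an adjusted p of 0.05 from limma with the 25th percentile filter. EGFR, GRB2, FYN and SORBS2 lie below 0 and CDH1 above it.

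Genes with the pattern most like that of CBL over the 6 arrays were sought among 6157 others with a mean log2 intensity above 5. The closest were TNFAIP1, an adaptor of CUL3 ubiquitin ligases (Pearson r = 0.998, Spearman rho = 1), and the secreted Wnt antagonists DKK2 (r = 0.994, rho = 1) and FRZB (r = 0.993, rho = 0.943). For CBLB they were LRRC42 (r = 0.996), MRPL10, a mitochondrial ribosomal protein (r = 0.985), and TMEM161A (r = 0.974), each with a rho of 0.943. An r above 0.95 was reached by 75 genes for CBL and by 7 for CBLB. All points share the same 6 arrays and the group difference, so these correlations describe likeness only.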

How the data were processed

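Total RNA of 6 H661 samples was labelled as biotinylated cRNA and hybridised to Affymetrix arrays. A single table of intensity on a linear scale, already normalized, was deposited by the authors, with 32321 probe sets. RMA is named in the submitters' notes, without a version. RMA corrects background, normalizes arrays to each other and summarises probes, which can compress differences. All values below 8 stand at 8, on 38.8% to 40.4% of the probe sets of an array. No 2 arrays were identical, and within-group correlations were 0.969 to 0.980.

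Log2 was taken. Probe sets with exactly 1 symbol (19158) were kept, 1388 with several were left out, and 11775 had none listed. The brightest probe set stood for each of 18404 genes, of which 637 had several. The test was lmFit and eBayes of limma 3.58.1 (R 4.3.3) with Benjamini-Hochberg adjustment. The members, lists and alternatives were chosen with earlier results of these data known. Genes named are the members, SALL4, EGFR, IGF1R, in each list the genes past the threshold or up to 2 with the smallest p, and the 3 most like CBL and CBLB; genes called only with the filter, MTND2P28, the markers and reference genes quoted and the catenins were named after their values were seen. Alternatives varied the filter, normalization, moderation, array weights, floor, probe set rule, replicate block and each array left out. The preference for RefSeq-linked probe sets and the filter combined with an array left out were added after seeing the data. The within-array ratios were not planned in advance.

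In tests on simulated data with known changes, the fit over all genes gave a larger share of false calls than its threshold allows and recovered fewer changes than the filtered fit, whose false calls stayed under the threshold. Calls of the unfiltered fit are therefore less reliable. The number of arrays limits the precision.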

Additional observations from a re-analysis of the deposited data

How the results depend on the processing

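Genes called higher and lower numbered 218 and 244. They were 633 and 610 without genes at the floor on all arrays, 821 and 764 with the 25th and 825 and 740 with the 50th percentile filter, 26 and 50 with trend and robust eBayes, 47 and 64 by one-way ANOVA, and 23 to 231 and 29 to 173 with 1 array left out. With RefSeq-linked probe sets preferred, chosen after seeing the data, together with the 25th percentile filter they were 820 and 767. With that filter and 1 array left out, also chosen after seeing the data, they were 185 to 911 and 306 to 676, the fewest without SALL4-sh replicate 2, and 0 to 2 of the CBL ligases and adaptors were called.

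Of the CBL ligases and adaptors, 0 were called as reported. The call of CBL alone (1) was gained without genes at the floor throughout, those of CBL and CD2AP (2) with either percentile filter, that of CBLC (1) with array weights and without Scr-sh replicate 2 (0 to 1 with 1 array left out), that of SH3KBP1 (1) with RefSeq-linked probe sets, and 3 with those and the filter. The log2 fold change of SH3KBP1 was 0.59 as reported and reversed to -0.77 as the mean of its probe sets and to -2.14 with the RefSeq-linked one, with and without the filter. The RefSeq-linked probe set lost its call (adjusted p = 0.0355 from limma) with trend and robust eBayes (0.0567), one-way ANOVA (0.0691) and the replicate block (0.162). CBL, CBLB, CBLL1 and CD2AP kept their direction under every alternative tried, with log2 fold changes over all of them of 0.89 to 1.14, -0.32 to -0.10, -0.47 to -0.02 and -0.98 to -0.65. CBLC and UBASH3B had no value with the floor at 16.

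The groups share replicate numbers, but deviations of same-numbered arrays correlated at only 0.151, 0.121 and 0.0146, and not every array correlated best with its own number, so the numbers were not taken as pairs. With the replicate block 3 genes were higher and 7 lower, SALL4 had an adjusted p of 0.115 from limma, and no CBL ligase or adaptor was called.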
